A study of Mus musculus with 9 samples.

Results

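The Kruppel-like factors described here are 10 rows of a gene expression table of mouse bone marrow-derived mast cells, Klf2, Klf3, Klf4, Klf6, Klf7, Klf9, Klf10, Klf11, Klf13 and Klf16, taken by name from 23951 gene symbols. The genes are listed by name with no threshold on their values, but they were chosen with earlier results of these data known. The table holds 7 further Klf genes, all under the filter used below, which are given for completeness. The mast cells came from C57BL/6 animals, labelled wild type, and had been cultured over 4 to 6 weeks with stem cell factor and interleukin-3, each at 10 ng/ml. By the labels, over 95% of them carried both the IgE receptor and CD117. Of the 9 libraries, 3 came from untreated cells, 3 from cells sensitized for 18 h with 0.5 µg/ml IgE against the hapten DNP (the IgE group), and 3 from cells given the same IgE and then 50 ng/ml DNP-BSA, a multivalent antigen that cross-links the bound IgE, for 2 h (the antigen group). All groups share the 2 cytokines, the strain and the genotype. Whether replicates were separate cultures or animals is not stated, so each p-value reflects library-to-library spread alone, which may be technical.

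Kruppel-like factors bind GC-rich and CACCC-type DNA elements through zinc fingers at the carboxyl end that are much alike across the family, while their amino-terminal parts recruit different cofactors. Klf2 and Klf4 are known for holding leukocytes and endothelial cells in a quiescent state, Klf3 represses through the CtBP corepressors, and Klf9, Klf10, Klf11, Klf13 and Klf16 recruit the Sin3 corepressor complex. Several family genes, Klf10 and Klf6 among them, are known to be switched on quickly by growth factors, cytokines or stress.

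Levels are FPKM, read fragments scaled by transcript length and library size, as deposited. Errors after ± are SD over n = 3 libraries. Tests used limma on log2(FPKM + 1) across 10890 genes that reached 1 FPKM in 3 or more libraries, with Benjamini-Hochberg adjustment over all of them, and a gene is called when the adjusted p is under 0.05. Log2 changes are on that scale, which understates changes of low genes, and folds are ratios of mean FPKM. Read depth, inferred from how low FPKM values are spaced, was 20.5 to 39.2 M reads, with 20.5 to 28.5 M in the antigen group. IgE replicate 3 lay apart from its group, with an SD of 0.175 for its log2 differences from the other 2 IgE libraries, against 0.099 to 0.123 in the other 8 libraries. A set of 441 genes on X or Y read 0 in antigen replicate 3 alone. None of the 10 members is X- or Y-linked. Of 10 mast cell markers, 8 were tested, while Cpa3 and Cma1 were listed at 0 in all 9 libraries, which can be a failed estimate. The IgE receptor alpha chain gene Fcer1a was at 5652 ± 281 FPKM in untreated cells. With antigen Hdc, Il1rl1 and Tpsb2 rose (log2 4.92, 0.25 and 0.25) and Ms4a2 fell (log2 -0.78). With IgE alone Mitf and Il1rl1 fell (log2 -0.16 and -0.18). T and B cell markers summed to at most 0.346 FPKM over 8 genes in any library, with Cd3e, Cd3g and Ms4a1 at 0. The 9 monocyte and macrophage markers in the table summed to 27.0 to 30.01 FPKM in untreated, 25.1 to 26.7 in IgE and 20.2 to 22.4 in antigen libraries. With antigen Emr1 and Marco fell (log2 -0.24 and -0.43) and Cd163 rose (log2 0.39). With IgE alone Emr1 and Ly6c2 fell (log2 -0.35 and -0.46), and a change of 0.24 in Marco was not called. Basophil markers, of which mast cells express several, summed to 638 to 677 FPKM untreated, 540 to 609 with IgE and 642 to 655 with antigen, where Cd200r3 rose (log2 0.52) and Prss34 and Fcgr3 fell (log2 -0.74 and -0.58). With IgE alone Mcpt8 rose (log2 0.42) while Cd200r3 and Prss34 fell (log2 -0.19 and -0.38). The antigen change of Mcpt8, 0.20, was not called. The 6 dendritic cell markers summed to 0.331 to 0.485, 0.285 to 0.373 and 2.82 to 3.30 FPKM. With antigen most of the sum was Zbtb46 (log2 1.42), while Flt3 and Cd209a were listed at 0. Zbtb46 was at most at 0.235 FPKM in the other groups, and without its rise it would not have been tested. Clec9a and Xcr1, under the filter, had means of 0.0178 and 0.121 FPKM with IgE and 0.559 and 0.447 with antigen. The 7 erythroid markers in the table summed to 17.2 to 20.6, 24.2 to 25.4 and 30.3 to 31.7 FPKM, mostly Hbb-bt. The 4 eosinophil markers summed to 8.74 to 10.2, 6.95 to 8.34 and 3.98 to 5.14 FPKM, with Ccr3 lower and Siglec5 higher with antigen (log2 -1.68 and 1.65) and Epx under 0.05 in every group mean. Siglec5 too passed the filter only through the antigen libraries, with at most 0.429 FPKM in the others. Megakaryocyte markers, nearly all Itga2b, summed to 435 to 440, 361 to 375 and 392 to 404 FPKM, with Ppbp at 0 throughout. With antigen Itga2b rose (log2 0.13) and Gp9 fell (log2 -0.50). Endothelial and stromal markers, nearly all Pecam1, summed to 175 to 180.3, 162 to 172 and 298 to 305 FPKM, with Cdh5 and Col3a1 at 0 throughout, and the 7 neutrophil markers summed to at most 2.68 FPKM. The part of these markers in the results was not tested, and in bulk RNA fewer cells of a type and less RNA per cell cannot be told apart.

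After antigen, Klf10, Klf9 and Klf13 rose 4.81-fold, 3.07-fold and 2.51-fold over IgE alone, and Klf2 fell 2.64-fold. Smaller rises were called for Klf3, Klf6 and Klf16 and a smaller fall for Klf11. Klf7 was not called, and Klf4 was near 0 throughout. In all, 6 of the 9 tested members were higher and 2 lower, where 36.2% of all tested genes were called higher and 34.9% lower. The median change of the 9 was 0.26 on the log2 scale, beside -0.01 for all tested genes. Against untreated cells IgE alone moved the family little, with 1 member called higher (Klf10) and 2 lower (Klf9 and Klf2), where 14.5% of tested genes were called higher and 13.1% lower.

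The proximal promoters of 3 of the 4 members with the largest antigen changes are shown because their levels moved in opposite directions, Klf9 and Klf13 up and Klf2 down. Each is the RefSeq window from 250 bases before to 50 bases after the start, from GRCm38.p6, 5′ to 3′ on the gene's strand. The table of promoters held 8 of the 10 members, without Klf10 and Klf16. Capitals mark the core of a cyclic AMP response element (CRE), TGACG on either strand, or a match to the MEF2 consensus. The Klf2 window is chr8:72318812-72319111 on the plus strand, that of Klf9 chr19:23140976-23141275 on the plus strand and that of Klf13 chr7:63938866-63939165 on the minus strand.
Klf2: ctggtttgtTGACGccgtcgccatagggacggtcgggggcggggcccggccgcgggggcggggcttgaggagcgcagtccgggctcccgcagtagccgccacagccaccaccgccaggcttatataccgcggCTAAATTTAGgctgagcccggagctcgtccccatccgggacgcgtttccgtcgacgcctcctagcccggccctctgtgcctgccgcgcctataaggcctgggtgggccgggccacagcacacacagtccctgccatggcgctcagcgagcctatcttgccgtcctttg
Klf9: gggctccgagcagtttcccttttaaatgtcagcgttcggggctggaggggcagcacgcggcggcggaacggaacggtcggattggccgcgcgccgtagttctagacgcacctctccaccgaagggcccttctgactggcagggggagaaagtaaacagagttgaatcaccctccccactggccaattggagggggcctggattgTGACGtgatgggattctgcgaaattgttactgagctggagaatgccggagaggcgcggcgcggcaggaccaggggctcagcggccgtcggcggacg
Klf13: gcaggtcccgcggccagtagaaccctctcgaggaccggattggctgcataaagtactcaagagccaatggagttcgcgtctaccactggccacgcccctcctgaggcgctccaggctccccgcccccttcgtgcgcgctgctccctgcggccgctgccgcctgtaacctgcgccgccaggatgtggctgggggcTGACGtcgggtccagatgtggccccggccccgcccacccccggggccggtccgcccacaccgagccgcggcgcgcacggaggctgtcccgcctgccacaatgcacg

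Klf9 and Klf13, both higher after antigen, each held 1 CRE core close to the start, at -46 to -42 in Klf9 and at -56 to -52 in Klf13, both on the gene's strand. Klf2, which was lower, held 1 as well, farther upstream at -241 to -237. The motif was in 5 of the 8 members' promoters, the others being Klf3 and Klf4, against 20.8% of all 32851 promoters of this length. In Klf3, also called higher after antigen, it lay past the start at 20 to 24, and in Klf4 at -232 to -228, both on the other strand. Klf2 alone of the 8 matched the MEF2 consensus, a sequence that reads the same on both strands at -118 to -109, where 3.19% of all promoters have a match. MEF2 factors are known activators of Klf2 transcription. No window matched the AP-1 site (TGACTCA or its complement), the EGR site (GCGTGGGCG), the NF-kB consensus or the CArG box consensus, which 5.2%, 0.612%, 8.46% and 1.63% of all promoters held. The GC box GGGCGG, which overlaps other GC-rich elements, was in 7 of 8 windows, all but Klf9, against 35.7% of all promoters. The Klf-type box CACCC was in 5 of 8, against 57.5%, and the NFAT core GGAAA in 3 of 8, against 61.3%. The windows were 58.3% to 77.7% G and C, where the median promoter had 52.7%, and the shares over all promoters were not matched for this. Matches describe these windows only, and whether any factor binds there was not measured.

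**Figure D1:**
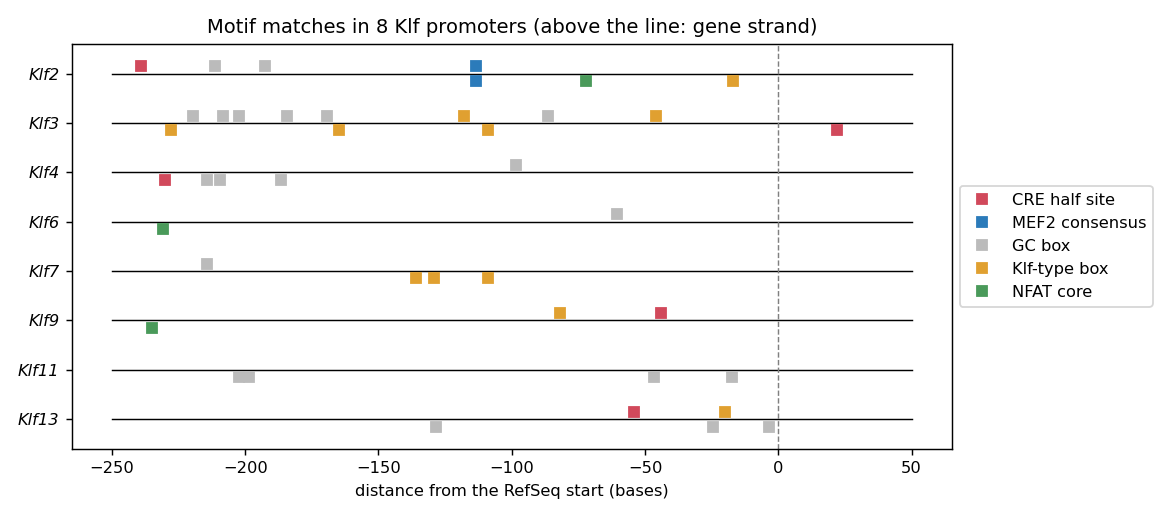
Positions of motif matches in the 8 Klf promoters of the RefSeq table, with the distance from the start in bases on the horizontal axis, squares above a line for the gene's strand and below for the other. The CRE cores of Klf9 and Klf13 lie within 60 bases before the start, and only Klf2 has a MEF2 match, drawn on both strands.

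Klf10, also known as TGF-beta-inducible early gene 1, is a repressor that acts through Sin3. It was at 11.9, 12.1 and 13.1 FPKM in the 3 untreated libraries, at 15.1, 15.3 and 15.9 with IgE and at 73.9, 72.6 and 76.5 with antigen. No group overlapped another, and the antigen libraries lay far above both. The antigen change was 2.20 on the log2 scale (SE 0.0429, limma adjusted p = 2.32e-09), and only 1.25% of tested genes rose by more. IgE alone gave a rise of 1.25-fold (log2 0.30, limma adjusted p = 0.00213), and both calls held in all 20 alternatives. Klf11, its closest relative and also TGF-beta-inducible, did not follow. It was at 1.11, 1.19 and 1.37 FPKM untreated, at 1.41, 1.29 and 1.45 with IgE and at 0.835, 0.844 and 0.847 with antigen. The antigen libraries were below all others, a fall of 0.37 on the log2 scale (95% interval -0.50 to -0.24, limma adjusted p = 0.000367), while the 95% interval for Klf10 was 2.10 to 2.29. The untreated and IgE libraries of Klf11 overlapped (log2 0.10, limma adjusted p = 0.208).

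Klf9, a thyroid hormone- and glucocorticoid-inducible factor, was at 7.65, 7.81 and 7.64 FPKM untreated, at 6.03, 6.34 and 6.78 with IgE and at 19.8, 19.3 and 19.7 with antigen. The 3 groups did not overlap, and the order was IgE, untreated, antigen. The antigen change was 1.48 (SE 0.0422, limma adjusted p = 1.68e-08) and the IgE change -0.24 (limma adjusted p = 0.00501), both called in all 20 alternatives. Klf13, known from T cells as an activator of the chemokine gene Ccl5, was at 8.51, 7.97 and 8.24 FPKM untreated, at 7.39, 6.85 and 10.01 with IgE and at 19.2, 21.2 and 20.5 with antigen. Every antigen library lay above the other 6, while the IgE libraries spread around the untreated ones because replicate 3 was high. The antigen change was 1.24 (SE 0.113, limma adjusted p = 1.67e-05). IgE alone gave -0.04 (limma adjusted p = 0.837), and without IgE replicate 3 it gave -0.19 with an adjusted p of 0.0317, the smallest of 0.0317 to 0.978 over its alternatives in limma. Klf16, a close relative of Klf13 and Klf9, was at 5.03, 4.93 and 5.30 FPKM untreated, at 4.89, 4.53 and 5.66 with IgE and at 6.11, 6.22 and 6.26 with antigen. The antigen libraries were above the rest by a small margin (log2 0.26, limma adjusted p = 0.00749), and IgE alone gave -0.02 (limma adjusted p = 0.876).

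Klf2 moved the other way. It was at 3.45, 3.10 and 2.85 FPKM untreated, at 1.67, 2.22 and 2.58 with IgE and at 0.967, 0.778 and 0.706 with antigen. The 3 groups did not overlap and the order was untreated, IgE, antigen. The antigen change was -0.79 (SE 0.112, limma adjusted p = 0.000261) and was called in all 19 alternatives that kept the gene. The IgE change was -0.40 (limma adjusted p = 0.0319, with 0.0125 to 0.108 over all 19 alternatives), but 9 of 19 alternatives did not call it. Among these were the fits without untreated replicate 1, 2 or 3 or IgE replicate 1 or 2, with log2 changes of -0.28 to -0.45. At the estimated depth the lowest antigen value of Klf2 stood for about 29.5 reads, which gives a counting error of 18.4%. Klf4, the closest relative of Klf2 and a factor of monocytes and epithelia, was at 0.0324 to 0.0671 FPKM untreated, 0.04 to 0.0486 with IgE and 0.0113 to 0.0650 with antigen. The groups overlapped, each value stood for about 0.962 to 6.73 reads, and the gene was under the filter. In the fit with no filter its antigen change was -0.02 (limma adjusted p = 0.479), and at this depth a change was not detectable.

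Klf6 is widely expressed and known for injury and inflammatory responses, and it was the most abundant member in every library. It was at 81.9, 80.996 and 85.3 FPKM untreated, at 79.8, 78.2 and 71.4 with IgE and at 88.96, 89.7 and 92.6 with antigen. The antigen libraries were highest, by 0.24 over IgE (limma adjusted p = 0.00146). This small rise depended on the scaling, since quantile normalization gave -0.0086 (limma adjusted p = 0.86, with 0.000677 to 0.86 over the alternatives). Its IgE change was -0.11 (limma adjusted p = 0.0995), and it was called with quantile normalization only (log2 -0.18, adjusted p of 0.0153 to 0.258 over the alternatives). Klf7, a relative of Klf6 known from neurons and adipose tissue, was at 2.31, 1.94 and 2.01 FPKM untreated, at 2.15, 1.97 and 2.45 with IgE and at 1.83, 1.77 and 2.04 with antigen. All 3 groups overlapped, and the antigen change of -0.15 had a 95% interval of -0.31 to 0.02 (limma adjusted p = 0.105), so a fall of up to 0.31 was not excluded. Klf3, the CtBP-dependent repressor, was at 28.5, 27.1 and 27.7 FPKM untreated, at 19.8, 21.4 and 27.1 with IgE and at 30.6, 29.4 and 33.4 with antigen. The antigen libraries were above the other 6 (log2 0.45 over IgE, limma adjusted p = 0.00423). The IgE libraries were all below the untreated ones, replicate 3 only just, and the change of -0.29 was not called (limma adjusted p = 0.0689). It was called in 4 of 20 alternatives (limma adjusted p = 0.00263 to 0.189), with the same -0.29 in 3 of them and with -0.42 without IgE replicate 3.

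**Figure D2:**
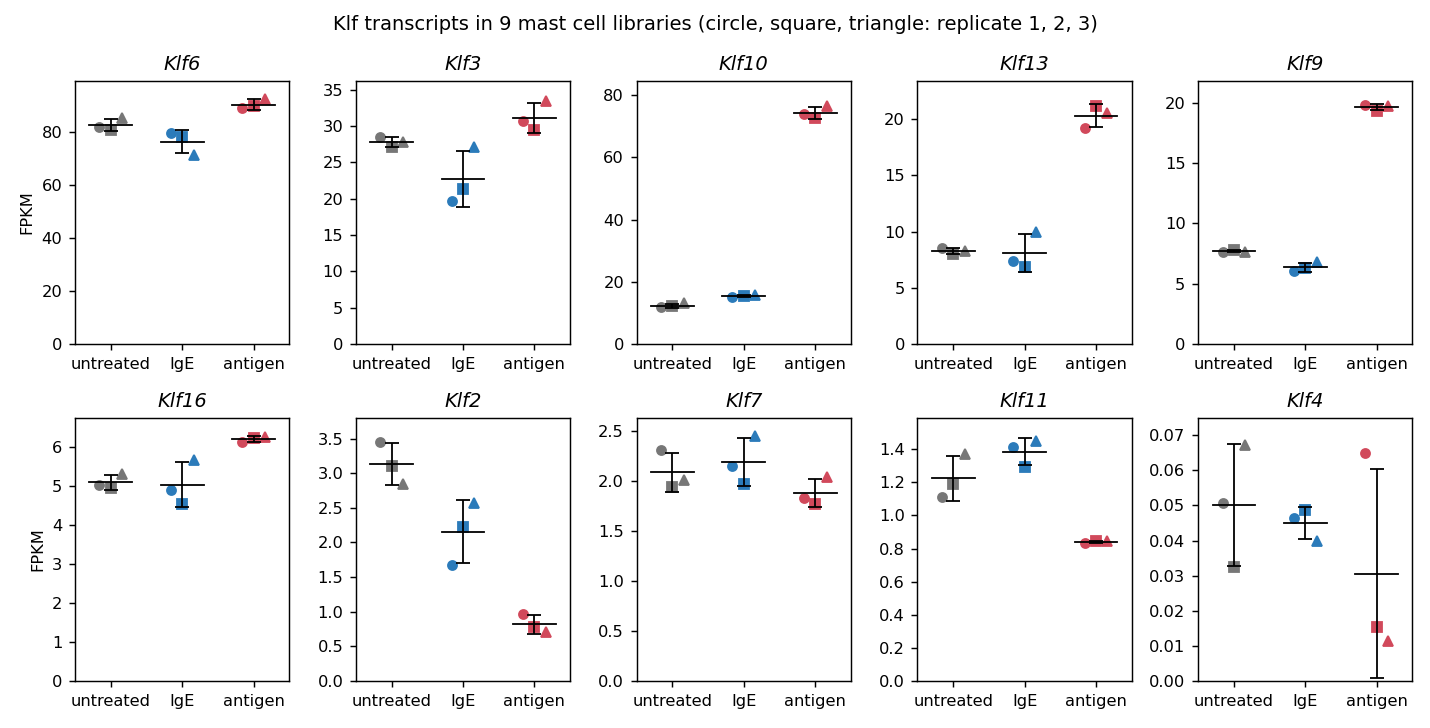
FPKM of each of the 10 members in every library, by group, with circle, square and triangle for replicates 1, 2 and 3, a bar at the group mean and whiskers of 1 SD, each panel with its own axis from 0. Klf10, Klf9 and Klf13 stand apart upward in the antigen group, Klf2 steps down from 3.13 to 2.16 and 0.817 FPKM, and Klf4 stays below 0.07 FPKM.

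**Figure D3:**
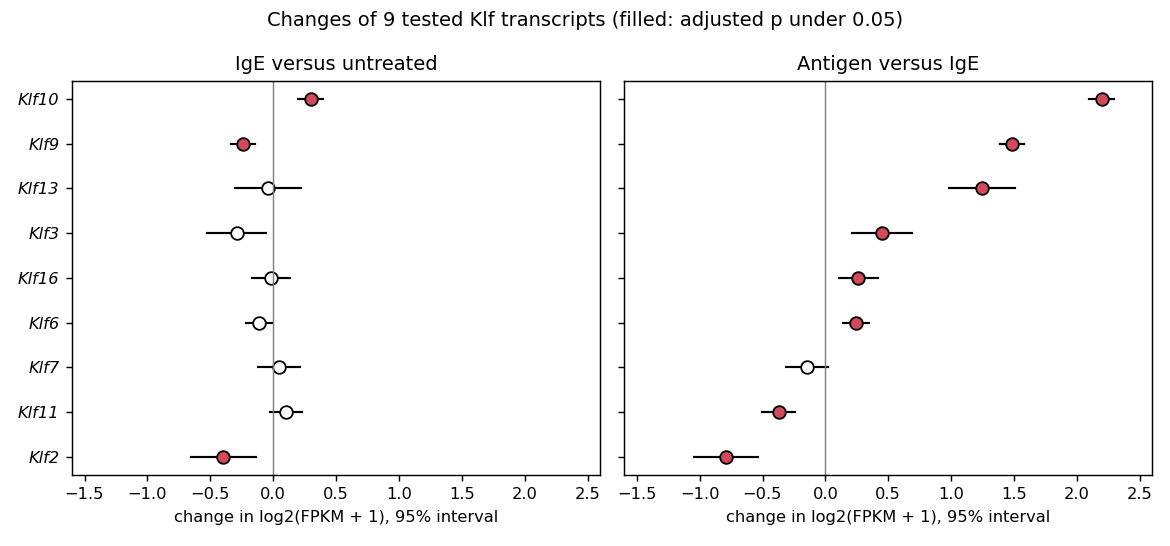
Change in log2(FPKM + 1) of the 9 tested members for IgE versus untreated (left) and antigen versus IgE (right), with 95% intervals of the limma fit and filled points for adjusted p under 0.05. Changes span -0.40 to 0.30 on the left and -0.79 to 2.20 on the right.

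Against untreated cells the antigen group combines both steps and shares its libraries with both other comparisons. There, 5 of the 9 tested members were called higher (Klf6, Klf9, Klf10, Klf13 and Klf16) and 2 lower (Klf2 and Klf11), where 37.2% of tested genes were called higher and 34.4% lower. Klf10 was 6.00-fold higher (log2 2.49) and Klf2 3.83-fold lower (log2 -1.19). Klf9, lower with IgE alone, was 2.55-fold higher than untreated after antigen. Klf3 was at 0.16 (limma adjusted p = 0.198). The same change passed the test without IgE replicate 3 (limma adjusted p = 0.0274) and with no IgE library in the fit (0.0298), but not without IgE replicate 1 (0.139) or 2 (0.219), in a range of 0.0274 to 0.868 over the alternatives. The call of Klf6 (log2 0.13, limma adjusted p = 0.0333, with 0.00335 to 0.107 over all 20 alternatives) was lost in 7 of 20. These were median centring, the replicate block and leaving out untreated replicate 1 or 2 or antigen replicate 1, 2 or 3. Quantile normalization turned the Klf6 change to a called fall of 0.18. The call of Klf11 (log2 -0.27, limma adjusted p = 0.00233) was lost with quantile normalization (log2 -0.09, with 0.00117 to 0.445 over the alternatives).

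The order of the levels changed with antigen. In untreated cells it was Klf6, Klf3, Klf10, Klf13, Klf9, Klf16, Klf2, Klf7, Klf11 and Klf4, and no neighbours overlapped between libraries. With IgE the only switch was between Klf7 (2.19 ± 0.241 FPKM) and Klf2 (2.16 ± 0.456), which overlapped. With antigen Klf10 was second, above Klf3, Klf13 and Klf9 overlapped at 20.3 ± 0.997 and 19.6 ± 0.248 FPKM, and Klf11 and Klf2 overlapped at 0.842 ± 0.0060 and 0.817 ± 0.135 FPKM. The summed level of the 10 transcripts was 147 to 154 FPKM untreated, 138 to 143 with IgE and 242 to 253 with antigen. Klf10 made up 8.23% ± 0.329 of that sum untreated, 11.04% ± 0.0805 with IgE and 30.3% ± 0.241 with antigen. Klf6 went from 55.0% ± 0.519 and 54.7% ± 4.26 to 36.8% ± 0.243, and Klf2 from 2.08% ± 0.222 and 1.54% ± 0.300 to 0.333% ± 0.0607. These shares describe transcripts, not protein.

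**Figure D4:**
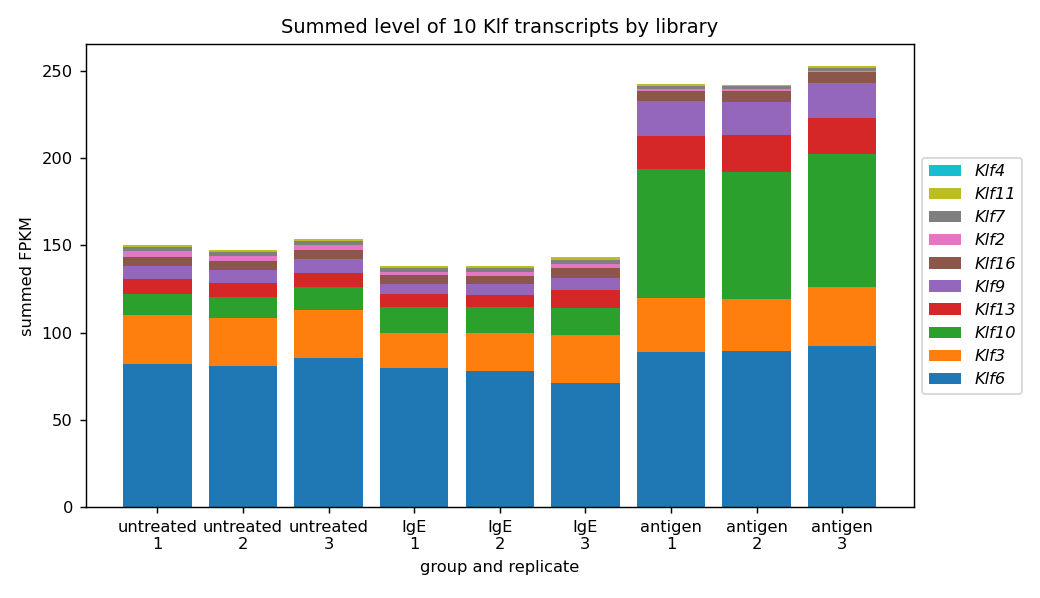
Summed FPKM of the 10 members in each of the 9 libraries, stacked by gene from Klf6 at the bottom to Klf4 at the top. The antigen libraries reach 242 to 253 FPKM against 138 to 154 in the other 6, and the Klf10 layer is the one that widens most.

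Likeness was sought for the 3 members whose antigen change was called and at least 1 in size in log2(FPKM + 1). Klf2, at -0.79 on that scale though 2.64-fold lower by mean FPKM, was under this cut. The genes with the most similar course over the 9 libraries were found by the root mean square (RMS) difference of centred log2 values. For Klf10 they were Lmna, the nuclear lamin A/C gene (RMS 0.0573), Tubb6, a beta tubulin (0.0668) and Ehd4, an endocytic ATPase (0.0736), where the median over all tested genes was 1.12. Lmna went from 93.2 ± 1.75 FPKM untreated to 112 ± 3.78 with IgE and 505 ± 4.398 with antigen. For Klf9 they were 6530402F18Rik (0.0525), Epb4.1l1, a cytoskeletal protein gene (0.0551), and Irf2bp2, a transcriptional corepressor (0.0595), with a median of 0.669. Irf2bp2 dipped like Klf9 from 50.6 ± 1.78 to 43.2 ± 3.72 FPKM with IgE and reached 114 ± 1.49 with antigen. For Klf13 they were Irf2bpl, a relative of Irf2bp2 (0.0549), Cobl, an actin nucleator (0.0581), and Sh2b3, an adaptor that restrains cytokine receptor signalling (0.0613), with a median of 0.611. The likeness includes the spread of IgE replicate 3, and it is a description of these 9 libraries.

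None of the 7 further Klf genes passed the filter. Klf12 and Klf14 were listed at 0 in all 9 libraries. Klf5 was at 0.246 to 0.296 FPKM untreated, 0.187 to 0.567 with IgE and 0.737 to 0.809 with antigen, where its libraries were above the other 6. Klf1, the erythroid factor, was at 0.539 to 0.736, 0.353 to 0.619 and 0.165 to 0.324 FPKM, lowest with antigen. In the fit with no filter the antigen change over IgE was 0.38 for Klf5 and -0.26 for Klf1 (limma adjusted p = 0.00665 and 0.034). At the estimated depth these rest on few reads, about 21.4 to 77.3 per library for Klf5 and 7.2 to 35.6 for Klf1. The counting error at the lowest value was 21.6% for Klf5 and 37.3% for Klf1. The X-linked Klf8 was at 0.783 to 0.948 FPKM in the untreated and IgE libraries, at 1.01 and 0.991 in antigen replicates 1 and 2 and listed at 0 in antigen replicate 3. Klf15 was listed at 0 in the antigen libraries and at most at 0.208 FPKM elsewhere, and Klf17 reached 0.0130 FPKM. The related Sp factors bind the same GC boxes. Of 9, 4 were tested, and 3 rose and 0 fell with antigen (list median 0.19), where 36.2% of all tested genes were called higher and 34.9% lower: Sp3 to 66.7 ± 1.30 FPKM (log2 0.32), Sp1 to 23.8 ± 1.61 (log2 0.18) and Sp4 to 5.12 ± 0.130 (log2 0.13). Under the alternatives 2 to 4 of them were called higher. Sp4 was the Sp factor called with IgE alone, lower by 0.31 (limma adjusted p = 0.00135).

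Among 14 cofactors that bind Klf proteins, 6 rose and 4 fell with antigen, with a list median of -0.03, where 36.2% of all tested genes were called higher and 34.9% lower. Sap30, a subunit of the Sin3 complex, rose from 19.0 ± 0.552 to 39.8 ± 3.52 FPKM (log2 1.03), and Sin3b from 99.9 ± 7.13 to 155 ± 2.78 (log2 0.63). The acetyltransferase gene Ep300 rose by 0.62. Sin3a, the paralog of Sin3b, fell by 0.28, and Wdr5, a subunit of histone methyltransferase complexes, went from 35.9 ± 0.305 to 21.8 ± 0.569 FPKM (log2 -0.70). With IgE alone 4 of the 14 rose and 0 fell (14.5% and 13.1% over all tested genes, list median 0.10, with 4 to 6 rises and 0 to 2 falls over the alternatives), Sap30 and Wdr5 among them.

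The ERK5 kinase pathway and MEF2 and Foxo factors act upstream of Klf2 and Klf4, and 7 of 12 tested genes rose and 4 fell with antigen (list median 0.33), where 36.2% of all tested genes were called higher and 34.9% lower. Foxo1, a known activator of Klf2 in lymphocytes, rose from 1.10 ± 0.146 to 4.04 ± 0.341 FPKM (log2 1.26). Foxp1 rose by 1.10 and Mef2a, which encodes a MEF2 factor, by 0.60. The kinases of the ERK5 pathway split. The ERK5 gene Mapk7 and its activating kinase Map2k5 fell by 0.44 and 0.28 on the log2 scale. Map3k2 and Map3k3, kinase genes of the same list, rose by 0.47 and 0.33. Hdac4, which encodes a MEF2-binding deacetylase, fell by 0.48. Mef2c and Mef2b were under the filter, with means of at most 0.202 FPKM. With IgE alone 0 rose and 2 fell (14.5% and 13.1% over all tested genes, list median -0.06, with 0 to 5 falls over the alternatives).

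Of 13 tested ubiquitin ligases and deubiquitinases that act on Klf proteins, 8 rose and 3 fell with antigen (list median 0.23), where 36.2% of all tested genes were called higher and 34.9% lower. Fbxw7, whose ligase complex degrades Klf2 and Klf5 protein, rose 2.71-fold to 56.8 ± 1.37 FPKM (log2 1.39), Smurf1 2.33-fold to 28.7 ± 0.319 (log2 1.16), Smurf2 by 0.60 and Btrc by 0.50. Wwp1, a ligase of Klf2 and Klf5 protein, fell by 0.29. The X-linked Siah1b was not called as deposited, with 1.80 and 2.03 FPKM and a listed 0 in the antigen libraries. With that 0 treated as missing it fell by 0.32 (limma adjusted p = 0.00797), an alternative chosen after seeing the data. With IgE alone 0 rose and 5 fell (14.5% and 13.1% over all tested genes, list median -0.07, with 3 to 5 falls over the alternatives).

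Klf10 and Klf11 are TGF-beta-inducible and act in its pathway, and 9 of 12 tested genes of that pathway rose with antigen and 2 fell (list median 0.65), where 36.2% of all tested genes were called higher and 34.9% lower. Skil, an inhibitor of Smad proteins, rose 12.2-fold from 4.92 ± 0.00964 to 60.2 ± 1.10 FPKM (log2 3.37, limma adjusted p = 8.69e-11). Smad7, the inhibitory Smad that Klf10 is known to repress, rose 5.52-fold to 10.7 ± 0.335 FPKM (log2 2.00), and the corepressor gene Tgif1 4.53-fold to 19.3 ± 0.219 (log2 1.95). The ligand gene Tgfb1 rose 2.501-fold from 60.9 ± 17.1 to 152 ± 6.98 FPKM (log2 1.34, limma adjusted p = 8.8e-05). Smad3, also among the 9, rose 5.39-fold to 2.87 ± 0.0618 FPKM (log2 1.34). It passed the filter only through the antigen libraries, with at most 0.793 FPKM in the others, and without its rise it would not have been tested. The receptor genes split. Tgfbr2 fell from 48.1 ± 3.23 to 29.3 ± 0.245 FPKM (log2 -0.69), and Tgfbr1 rose from 155 ± 8.89 to 233 ± 10.8 (log2 0.59). With IgE alone 0 rose and 4 fell (14.5% and 13.1% over all tested genes, list median -0.12, with 1 to 7 falls over the alternatives).

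Of 12 genes described as targets of Klf2 or Klf4 in other cells, 8 were tested. With IgE alone 7 fell and 1 rose, where 13.1% of all tested genes were called lower and 14.5% higher. The list median was -0.31, beside -0.01 for all tested genes, with 5 to 7 falls over the alternatives. Klf2 was called lower there too, with the losses of that call given above, and a link between Klf2 and these genes was not tested. Cdkn1b, an inhibitor of the cell cycle, went from 51.7 ± 2.33 to 37.6 ± 2.00 FPKM (log2 -0.45), Il7r from 1.67 ± 0.104 to 1.001 ± 0.177 (log2 -0.42) and S1pr1, the receptor for lymphocyte egress, from 4.01 ± 0.102 to 3.11 ± 0.157 (log2 -0.28). Cdkn1a, another cell cycle inhibitor, was the 1 that rose (log2 0.41). With antigen 4 of the 8 fell and 2 rose (median -0.14), where 34.9% of all tested genes were called lower and 36.2% higher. S1pr1 fell further to 1.64 ± 0.0921 FPKM (log2 -0.64) and the chemokine receptor gene Ccr2 from 73.6 ± 5.86 to 18.6 ± 0.785 (log2 -1.93). Il7r rose to 6.89 ± 0.0205 FPKM (log2 1.98) and Cdkn1a to 69.6 ± 3.74 (log2 1.24).

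Klf9 is a known glucocorticoid target and a clock-controlled gene. Of 9 tested genes of glucocorticoid response and clock, 5 rose and 2 fell with antigen (list median 0.32), where 36.2% of all tested genes were called higher and 34.9% lower. Fkbp5, a cochaperone of the glucocorticoid receptor, rose 2.31-fold to 38.6 ± 0.0905 FPKM (log2 1.16) and the kinase gene Sgk1 2.39-fold to 3.50 ± 0.446 (log2 0.86). Dusp1, among the 5, passed the filter only through the antigen libraries (1.26 to 1.55 FPKM, at most 0.912 elsewhere). The clock genes split, with Per1 0.55 higher and Per2 0.22 lower on the log2 scale. Per3 was lower as well, at 3.36 ± 0.171 against 5.78 ± 0.428 FPKM (log2 -0.63). The X-linked Tsc22d3 had 39.4 and 41.01 FPKM and a listed 0 in the antigen libraries. With that 0 treated as missing it rose by 0.25 over IgE (limma adjusted p = 0.00213). IgE alone gave 1 rise and 2 falls (14.5% and 13.1% over all tested genes, list median -0.21, with 0 to 4 falls over the alternatives).

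**Figure D5:**
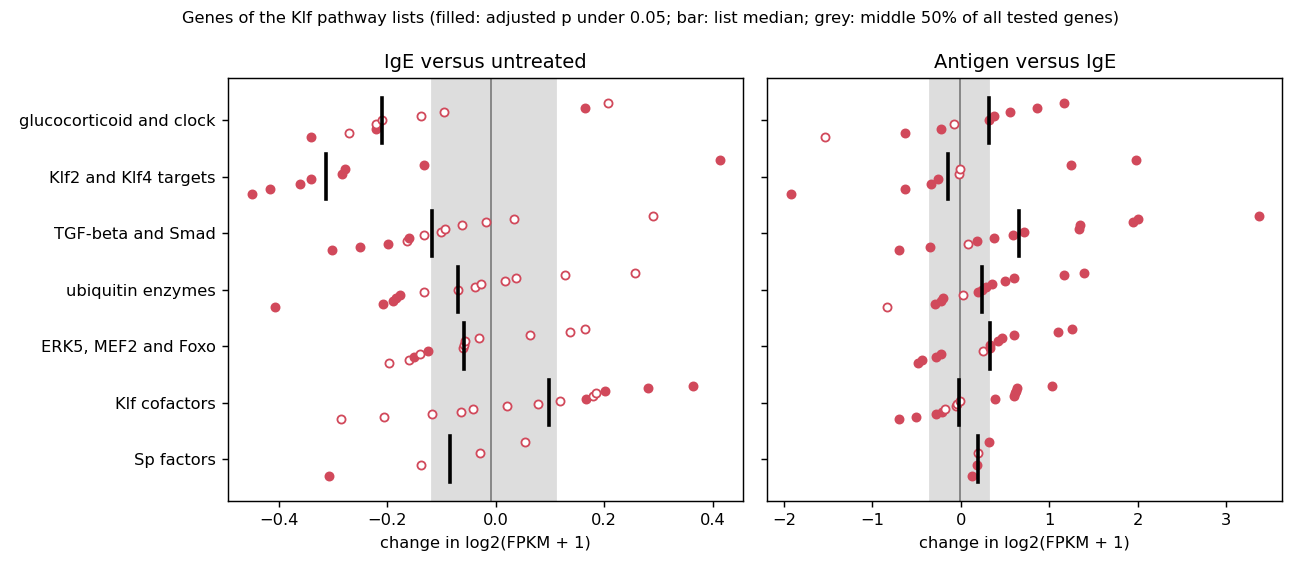
Change in log2(FPKM + 1) of each tested gene in 7 lists for IgE versus untreated (left) and antigen versus IgE (right), with filled points for adjusted p under 0.05, a black bar at each list median, and grey for the middle 50% and median of all tested genes. On the left the targets described for Klf2 and Klf4 sit lowest with a median of -0.31, and on the right the TGF-beta and Smad genes sit highest with a median of 0.65.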

How the data were processed

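RNA of 9 mast cell libraries was sequenced, 3 per group by the treatment in the labels. The deposited table gives FPKM per gene symbol. Per the submitters' processing notes the authors used TopHat2 2.0.12 and Bowtie 0.12.7 with mm9. No source used here names the program behind the FPKM values, its annotation or whether strand was used, so reads of overlapping antisense genes may not be separated. Columns were matched to samples by name.

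A gene was tested if it reached 1 FPKM in 3 or more libraries, which left 10890 of 23951. A gene could thus enter through the group where it was high, as given for Siglec5, Zbtb46, Smad3 and Dusp1. limma 3.58.1 in R 4.3.3 was fitted to log2(FPKM + 1) over all 9 libraries, by group, without covariates and with an intensity trend. Tests were two-sided, adjusted by Benjamini-Hochberg within each comparison, called at 0.05, and tested on simulated data. The 20 alternatives changed the pseudocount, filter, scaling, prior, libraries in the fit, replicate block and single libraries; the treatment of X and Y zeros was chosen after seeing the data. Depth came from FPKM times transcript length in 2966 genes with a single annotated transcript (GENCODE M21). At the best depth, 58.4% to 68.5% of low values lay within 0.1 of a whole read. Such figures cover counting error only. Promoters are RefSeq windows of GRCm38.p6, matched by symbol for 8 of 10 members, and no coordinates of the deposited files are given.

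The members and gene lists were chosen with earlier results of these data known. All members are named. Of each list, the up to 4 called genes with the largest antigen change are given, and other called genes may be named, and like-patterned genes are the 3 with the smallest RMS difference. Klf1, Klf12, Klf14, Klf15, Klf17, Mef2b, Mef2c, Siah1b, Tsc22d3, Clec9a and Xcr1 were named after their values were seen.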

Additional observations from a re-analysis of the deposited data

How the results depend on the processing

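The rises of Klf10, Klf9, Klf13, Klf3 and Klf16 with antigen over IgE kept their direction and call in all 20 alternatives, and the falls of Klf2 and Klf11 in the 19 that kept these genes. Requiring 1 FPKM in all 9 libraries left Klf2 and Klf11 untested, so members called lower went to 0 against IgE and 0 against untreated cells. Quantile normalization turned the antigen change of Klf6 to -0.0086 over IgE and -0.18 over untreated, and that of Klf7 over untreated to 0.088; the cause was not tested. For IgE versus untreated, 1 member instead of 2 was called lower with a pseudocount of 0.1, with no filter and with the replicate block, and 1 to 4 when a library was left out, 4 without IgE replicate 3. Leaving out a library also gave 1015 to 1942 of all tested genes higher and 880 to 1945 lower (1015 and 899 without untreated replicate 1, 880 lower without untreated replicate 3), and moved Klf13 from -0.19 to 0.057, Klf16 from -0.093 to 0.041 and Klf7 from -0.011 to 0.098. Same-numbered replicates deviated together with r of 0.0361 to 0.35 between IgE and untreated, of -0.153 to 0.0168 between antigen and IgE and of -0.0201 to 0.0446 between antigen and untreated, so the numbers were not taken as pairs and not every library matched its own number best. The block gave 1 lower member for IgE versus untreated, without the calls of Klf2 there and of Klf6 for antigen versus untreated. No scaling moved the median of all tested genes by over 0.1. Depth limits Klf4.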
